A study of Drosophila melanogaster with 6 samples.

Results

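The transcription factor genes of chromosome 4 that were listed after knockdown of HP1a in Drosophila S2 cells were examined: ey, toy, Sox102F, dati and fuss. They were chosen by name among the genes listed for HP1a RNAi, which means that a deposited adjusted p below 0.05 for HP1a RNAi over GFP RNAi, measured in these same libraries, selected them. They are 5 of the 535 listed features, which comprise genes and repeat consensus sequences, and 5 of the 16 listed genes of chromosome 4. Their levels and differences in that comparison are therefore given as a description and carry no test. S2 cells were derived from fly embryos and resemble haemocytes, the blood cells of the fly. The HP1a RNAi group received double-stranded RNA against HP1a, the libraries labelled dKDM4A RNAi received it against the histone demethylase gene Kdm4A, and the GFP RNAi group, the control, received it against GFP, a sequence foreign to the fly. Each of the 3 groups held 2 libraries of polyadenylated RNA, and all cells were kept at 25 degrees with 10% serum, transfected with DOTAP and harvested after 5 days. No label states whether replicates are separate cultures, so the spreads given may be technical.

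HP1a binds methylated histone H3 and is a main structural protein of heterochromatin. The small chromosome 4 is largely packaged in this way, yet many of its genes are active, and HP1a is found along their bodies. Several of its genes encode transcription factors of development. The genes ey and toy encode the Pax6 proteins of the fly, which start eye formation, and toy acts before ey in that pathway. Sox102F encodes a SoxD protein with an HMG box that binds DNA. The gene dati encodes a zinc finger protein needed for normal female mating behaviour, and fuss encodes a member of the Ski/Sno family of transcriptional corepressors, known in flies from neurons.

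The 5 genes did not move together. In HP1a RNAi, dati and ey were higher than in GFP RNAi, and Sox102F, toy and fuss were lower. In each of the 5 genes the values of the 2 groups did not overlap, which was so in all 535 listed features and therefore comes with listing. Over all 8287 features tested, 6.46% were listed, 4.18% as higher and 2.28% as lower. Since listing chose the 5 genes, their count is not read against that share. Values are normalized counts, which are reads per gene divided by a size factor for each library.

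Of the Pax6 pair, ey had 136 and 135 normalized counts in the HP1a RNAi libraries, against 71.1 and 64.1 in the GFP RNAi libraries. Both HP1a RNAi libraries lay well above both controls, and the lower of them exceeded the higher control by 90.1%. The means were 136 ± 0.814 in HP1a RNAi and 67.6 ± 4.95 in GFP RNAi (SD, n = 2 each), a 2.01-fold higher level. These values rest on 169 and 142 reads in HP1a RNAi and on 76 and 46 reads in GFP RNAi. In the authors' deposited table the log2 fold change of ey was 0.86 with a standard error of 0.21.

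The paralogue toy went the other way. It had 459 and 494 normalized counts in the HP1a RNAi libraries, against 896 and 824 in the GFP RNAi libraries. Both HP1a RNAi values were thus clearly below both controls, by at least 40.0%. The mean was 476 ± 24.8 in HP1a RNAi, or 55.4% of the 860 ± 51.4 in GFP RNAi (SD, n = 2 each). The deposited log2 fold change of toy was -0.82 with a standard error of 0.12, in the authors' deposited table.

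The balance of the Pax6 genes therefore differed between the groups. Per kilobase of exon, toy exceeded ey 3.19-fold and 3.47-fold in the HP1a RNAi libraries, against 11.96-fold and 12.2-fold in the GFP RNAi libraries. The ratio averaged 3.33 ± 0.193 in HP1a RNAi and 12.1 ± 0.163 in GFP RNAi (SD, n = 2 each). The toy transcript was the more abundant of the pair in all 4 libraries. This ratio is free of the size factors, since both genes were read from the same library, but it follows from the levels that chose the genes.

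**Figure D1:**
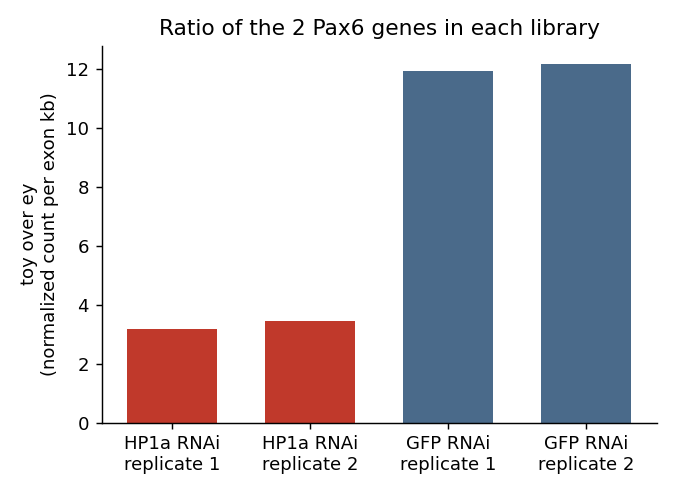
Ratio of toy to ey (vertical axis, ratio of normalized counts per kilobase of exon) in each of the 4 libraries of HP1a RNAi and GFP RNAi, 1 bar per library. The bars of the 2 HP1a RNAi libraries stand at 3.19 and 3.47, and those of the 2 GFP RNAi libraries at 11.96 and 12.2.

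Sox102F showed the tightest values of the 5 genes in proportion to its difference. It had 838 and 879 normalized counts in the HP1a RNAi libraries, against 1876 and 1854 in the GFP RNAi libraries. The replicates of each group lay close together, and the groups were far apart. The mean was 859 ± 29.3 in HP1a RNAi and 1865 ± 15.9 in GFP RNAi (SD, n = 2 each), which is 2.17-fold lower. In the authors' deposited table Sox102F had a log2 fold change of -1.09, a standard error of 0.09 and an adjusted p of 5.35e-31, the lowest of the 5.

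The gene dati had the largest difference of the 5 and the lowest control level. Its normalized counts were 89.5 and 113 in the HP1a RNAi libraries, against 16.8 and 18.1 in the GFP RNAi libraries. In GFP RNAi the gene was thus barely represented, by 18 and 13 reads, and in HP1a RNAi by 111 and 119 reads. The mean was 101 ± 16.8 in HP1a RNAi and 17.5 ± 0.902 in GFP RNAi (SD, n = 2 each), or 5.80-fold higher. The deposited log2 fold change was smaller, at 1.83 with a standard error of 0.27 in the authors' deposited table, compared with 2.54 from the mean normalized counts. Among the 346 higher features dati ranked 14th by that ratio and ey 109th.

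The gene fuss had the widest spread between replicates of the 5. It had 923 and 1223 normalized counts in the HP1a RNAi libraries, against 1439 and 2266 in the GFP RNAi libraries. The groups did not overlap, but the higher HP1a RNAi value was only 15.0% below the lower control. The mean was 1073 ± 212 in HP1a RNAi and 1853 ± 585 in GFP RNAi (SD, n = 2 each), or 1.73-fold lower. Its deposited adjusted p was 0.0441 in the authors' deposited table, and 23 of the 535 listed features had a higher one, up to 0.05. Genes beyond that threshold were not analysed here, so no transcription factor gene just outside it can be given. The log2 ratio of fuss was -0.79 with all libraries, -0.42 without GFP RNAi replicate 2 and -1.08 without GFP RNAi replicate 1. It was -0.60 without HP1a RNAi replicate 1 and -1.01 without HP1a RNAi replicate 2.

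**Figure D2:**
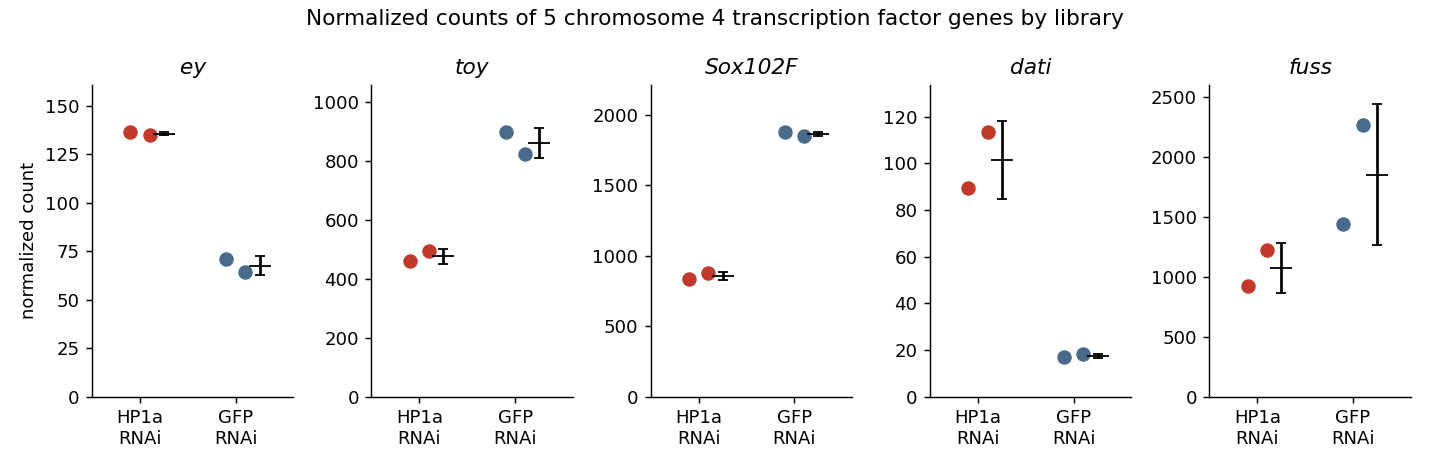
Normalized counts (vertical axes, each starting at 0 with its own scale) of ey, toy, Sox102F, dati and fuss. Points are the 2 libraries of HP1a RNAi (red) and the 2 of GFP RNAi (blue), and the bars beside them are the mean ± SD. The points of ey and dati lie higher in HP1a RNAi and those of toy, Sox102F and fuss lower, with the widest spread in fuss (1439 and 2266 in GFP RNAi).

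The spread of fuss between the controls was unusual for the table. GFP RNAi replicate 2 was 1.57 times replicate 1, while the larger of the GFP RNAi values was 1.09 times the smaller in the median listed feature. A factor at least that large occurred in 10 of the 535 features, fuss included. Among chromosome 4 genes, CG32017 came next, with 3351 and 5178 normalized counts in the GFP RNAi libraries, a factor of 1.55. Of the 16 listed chromosome 4 genes 9 were higher in replicate 2 than in replicate 1 in both groups, dati and fuss among them. The same count over all 535 listed features is not given here, so it is not read as particular to chromosome 4. Part of fuss is also shared with other genes. Its exons overlap those of the opposite-strand genes lncRNA:sphinx and asRNA:CR44030 by 488 and 299 bp, and those of dati overlap asRNA:CR44027, also on the opposite strand, by 210 bp. The use of strand in counting is not given, and reads in these stretches cannot be assigned with certainty. For ey, toy and Sox102F the annotation holds no overlapping gene other than transposable elements.

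Per kilobase of exon the order of the 5 genes was the same in both groups. In HP1a RNAi fuss had 288 normalized counts per kilobase, Sox102F 198, toy 122, ey 36.5 and dati 16.4. In GFP RNAi fuss had 498, Sox102F 430, toy 219, ey 18.2 and dati 2.83. In GFP RNAi fuss and Sox102F were not separated, because the fuss libraries, at 387 and 609 per kilobase, lay on both sides of the Sox102F libraries, at 433 and 428. In HP1a RNAi they were apart, with fuss at 248 and 329 and Sox102F at 193 and 203. All other neighbours in the order were separated in both groups. The range was narrower in HP1a RNAi. There Sox102F had 8.56 ± 1.13 times the normalized count of dati, against 107 ± 6.42 times in GFP RNAi (SD, n = 2 each, not corrected for length). The genes ey and dati made up 8.98% ± 0.356 of the summed normalized counts of the 5 in HP1a RNAi and 1.84% ± 0.290 in GFP RNAi (SD, n = 2 each). The narrower range, this ratio and this share follow from the levels that chose the genes. The control level of dati also rests on only 18 and 13 reads.

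In this small set the genes that were low in the control were higher in HP1a RNAi, and the genes that were high in the control were lower. The control means of dati and ey were 17.5 and 67.6 normalized counts, while those of the lower 3 genes were between 860 and 1865. The other 11 listed genes of chromosome 4 divided in the same way. CG1909 was the 1 higher gene among them, at 102 and 121 normalized counts in HP1a RNAi and 52.4 and 62.7 in GFP RNAi. The 10 lower genes had control means from 664 to 23281. On chromosome 4, all 3 listed genes with a control mean below 100 were higher, and 0 of the 13 with a control mean of at least 100. Off chromosome 4, 77 of 82 listed features below that level were higher, or 93.9%, and 266 of 437 at or above it, or 60.9%. The limit of 100 was set after the values were seen. These rows are only those that passed the authors' test, and the part that its sensitivity at low counts plays in this split was not tested. In bulk RNA, fewer cells with a transcript and less of it per cell cannot be told apart.

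**Figure D3:**
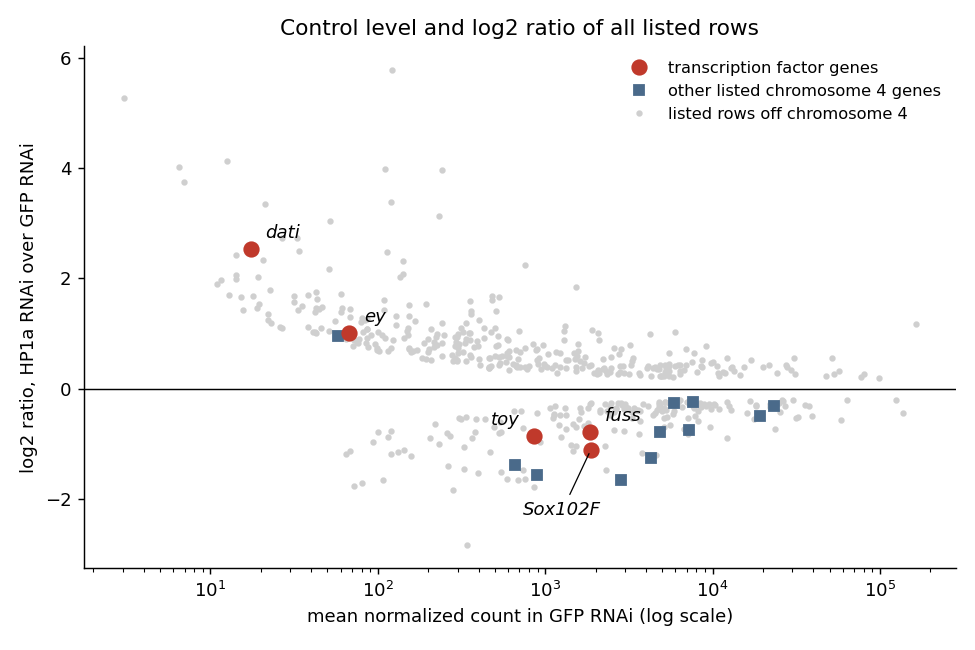
Log2 ratio of HP1a RNAi over GFP RNAi (vertical axis) against the mean normalized count in GFP RNAi (horizontal axis, log scale) for all 535 listed features. Red points are the 5 transcription factor genes, blue squares the other 11 listed chromosome 4 genes and grey points the remaining features; the 3 higher chromosome 4 genes have control means up to 67.6 and the 13 lower ones of at least 664.

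The files name no build, and their positions matched the BDGP6 (dm6) annotation exactly for the 16 listed chromosome 4 genes. The gene ey (FBgn0005558) spans chr4:697689-721173 on the plus strand, Sox102F (FBgn0039938) chr4:800436-834393 on the minus strand, fuss (FBgn0039932) chr4:962341-978489 on the minus strand and toy (FBgn0019650) chr4:989725-1007922 on the plus strand. The gene dati, listed as FBgn0039905 and annotated as FBgn0262636, lies apart at chr4:375640-395605 on the minus strand. The lower genes fuss and toy are next to each other and are read in opposite directions, with their 5′ ends facing across 11235 bp that hold no annotated gene other than transposable elements.

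Neighbouring listed genes did not always share a direction. The higher gene ey is followed after 3226 bp, with no such gene between, by bt, which encodes the muscle protein projectin. The normalized counts of bt were 269 and 331 in HP1a RNAi, against 848 and 932 in GFP RNAi, and its mean was 2.97-fold lower. On its other side the nearest listed gene is mav, a ligand gene of the TGF-beta family, at 71657 bp and lower 1.72-fold. The gene toy is followed after 1972 bp by PlexA, which encodes a semaphorin receptor and was lower 1.24-fold. Between Sox102F and fuss lies unc-13, a gene of synaptic vesicle priming, which was lower 1.41-fold. The gene dati has no listed gene close by. CG31998 lies 169694 bp to one side, with 16 annotated genes between, and Ephrin, a ligand gene of the Eph receptor, 176149 bp to the other, also with 16 between. Both were slightly lower, by 1.19-fold and 1.20-fold. The plot of log2 ratios in chromosome order shows the 3 higher genes dati, CG1909 and ey separated by lower ones.

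**Figure D4:**
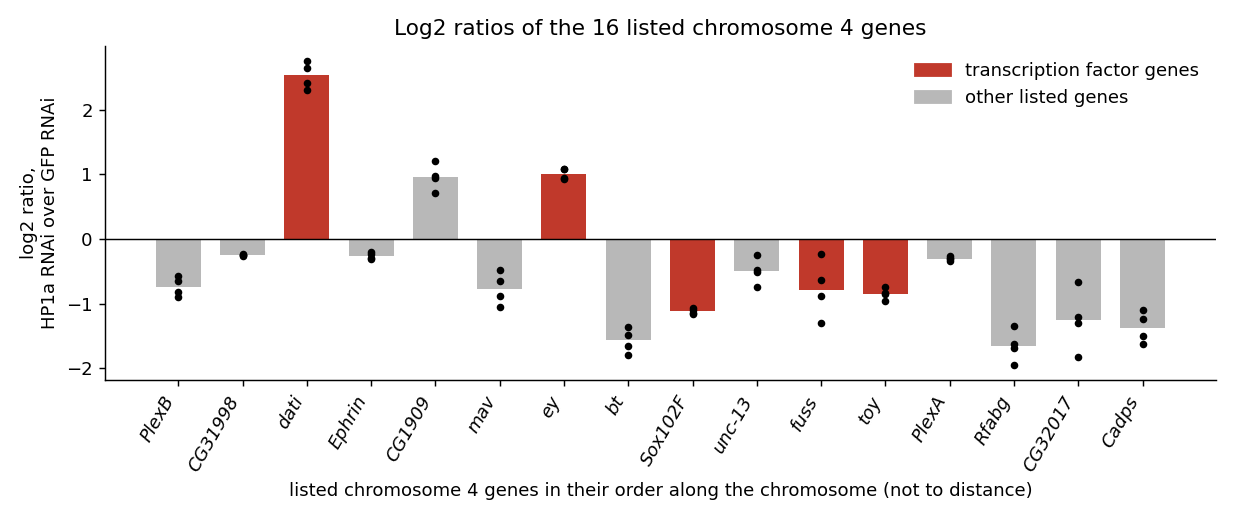
Log2 ratio of HP1a RNAi over GFP RNAi (vertical axis) for the 16 listed chromosome 4 genes in their order along the chromosome, not to distance. Bars are ratios of the means, red for the transcription factor genes, and the 4 black points per gene are the ratios of each HP1a RNAi library to each GFP RNAi library, which share libraries. The points of fuss range from -1.30 to -0.23 and those of Sox102F only from -1.16 to -1.08.

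The 5 genes are long, with most of their span outside exons. Their spans ranged from 16149 to 33958 bp with a median of 19966, compared with a median of 10090 over the 80 protein-coding genes annotated on chromosome 4 and of 16305 over the other 11 listed ones. Sox102F is the 6th longest of the 80, ey the 12th, dati the 14th, toy the 19th and fuss the 24th. The median share of the span outside exons was 78.5% in the 5 genes, 38.3% in the other 11 listed genes and 51.0% over all 80. Annotated transposable elements inside the spans numbered 14 in toy, 11 each in fuss and Sox102F and 7 each in ey and dati. Per 10 kb this came to 7.69 in toy and 6.81 in fuss, and to 3.51 in dati, 3.24 in Sox102F and 2.98 in ey, compared with a median of 3.27 over the 80 genes. Within the 5 genes the number of elements divided the set, with 7 in each of the higher genes and 11 or more in the lower ones. Span and element density did not divide it. This division was seen in 5 genes only and is given as a description. The other 11 listed genes, of which 10 were lower, held a median of 3 elements, so the division did not extend to them.

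In the libraries labelled dKDM4A RNAi none of the 5 genes was listed against GFP RNAi. That table held 90 features, 1.19% of the 7533 tested, and 1 chromosome 4 gene, the pigmentation gene yellow-h. Its normalized counts were 2099 and 2019 in the libraries labelled dKDM4A RNAi, against 949 and 1383 in GFP RNAi. The absence of a gene from that table gives no level for it, so the 5 genes cannot be compared between the HP1a RNAi libraries and the libraries labelled dKDM4A RNAi. Kdm4A itself was higher there, against the label, with 2141 and 2675 normalized counts in the libraries labelled dKDM4A RNAi and 842 and 843 in GFP RNAi. The HP1a gene (FBgn0003607) had 12834 and 15705 normalized counts in HP1a RNAi, against 21963 and 25507 in GFP RNAi. Its mean normalized count was thus lower, at 60.1% of the control mean, and HP1a protein was not analysed here.

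Other members of the same families and pathways are given by the number listed, beside the 6.46% listed over all features tested. How many members of each list were tested is not known, and no list was tested against that share. The lists were also chosen with earlier results of these data known. Of 12 transcription factor genes of chromosome 4 the 5 described here were listed, which is how they were chosen. The other 7, ci, pan, zfh2, sv, onecut, NfI and Mitf, were not, so without the 5 the count was 0 of 7. Of 10 Pax family genes only ey and toy were listed, and of 8 Sox genes only Sox102F. Without these chosen genes, 0 of 8 Pax genes and 0 of 7 Sox genes were listed. The retinal determination list, the eye genes that act with or after Pax6, had 4 of 16 members listed, 2 higher and 2 lower, with a median log2 ratio of 0.28, compared with 0.41 over all 535 listed features. Besides ey and toy these were tio and tsh, a pair of related zinc finger genes on chromosome arm 2L. The gene tio had 245 and 188 normalized counts in HP1a RNAi and 18.7 and 23.7 in GFP RNAi, while tsh had 11866 and 12021 in HP1a RNAi and 15931 and 16386 in GFP RNAi. This pair of paralogues, named because both were listed, differed in opposite directions, with the low-level gene higher and the abundant one lower. Off chromosome 4, 77 of 82 listed features with a control mean below 100 were higher, and 266 of 437 at or above it. The eye genes so, eya, dac and ato, which lie after Pax6 in that pathway, were not listed. Without ey and toy, 2 of 14 members of that list were listed, or 14.3%.

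The TGF-beta and Ski/Sno list had 3 of 20 members listed, with a median log2 ratio of -0.78. They were fuss, which was chosen by its listing, mav and Dad, which encodes an inhibitory Smad. Without fuss 2 of 19 were listed, or 10.5%, both lower, compared with 2.28% of all features listed as lower. Dad had 1840 and 1704 normalized counts in HP1a RNAi and 2361 and 2312 in GFP RNAi, or 1.32-fold lower. The related corepressor gene Snoo was not listed. None of 8 genes of Wnt-dependent transcription was listed. Among 12 genes of heterochromatin and chromosome 4 regulation 2 were listed, both lower, the RNAi target HP1a and the lamin gene Lam. That is 16.7%, compared with 2.28% of all features listed as lower, but it counts the target of the knockdown. Apart from the target, Lam was the only member listed. The methyltransferase gene egg and the chromosome 4 binding protein gene Pof were not listed.

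The listed features most like each of the 5 over the 4 libraries were found by Euclidean distance of centred log2 normalized counts. Most of them were not assigned to chromosome 4, which also held for 519 of all 535 listed features. For ey they were CG7985, CG4324 and TwdlG, at distances from 0.0695 to 0.0987, and for toy nrm, CG14780 and SmydA-1, from 0.143 to 0.155. For Sox102F they were CG12206, CG31546 and CG7966, from 0.0311 to 0.175, and for dati CG3679, CR41440 and CG18446, from 0.0747 to 0.322. The nearest to fuss were the retrotransposon IDEFIX_I, Vps11 and mav, from 0.215 to 0.239. Of these 15 features mav alone is assigned to chromosome 4, and the repeat sequence IDEFIX_I is assigned to no chromosome. The gene mav had 2652 and 2992 normalized counts in HP1a RNAi and 4162 and 5528 in GFP RNAi. Its wide spread between controls entered the distance that placed it near fuss, so it is no separate likeness.

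Markers of cell types were checked beside these results. Earlier results of these data were known when the lists were chosen, so their shares are a description and no excess is read from them. Of 18 haemocyte markers 5 were listed, Pxn, drpr, PPO2, lz and pnr, and all 5 were higher in HP1a RNAi. This is 27.8% of the markers, compared with 6.46% of all features listed in either direction and 4.18% listed as higher. Their summed normalized counts were 460358 and 391223 in HP1a RNAi, against 229038 and 182214 in GFP RNAi, most of it from Pxn. Neurons, in which several of the 5 factors act in the animal, had 0 of 13 markers listed. Of 15 photoreceptor markers only norpA was listed, or 6.67%, close to the share over all features, and it was lower at 3897 and 3680 normalized counts in HP1a RNAi and 5091 and 4454 in GFP RNAi. Of 9 germline markers 4 were listed, aub, osk, vas and zpg, or 44.4%, all higher, compared with 4.18% of all features listed as higher. By symbol, 8 of the 9 were in the annotation used. Their sums, mostly from aub, were 15350 and 15073 in HP1a RNAi and 11040 and 11523 in GFP RNAi. The gene aub was 1.34-fold higher, zpg 1.34-fold, osk 2.63-fold and vas 5.06-fold. Levels of unlisted markers were not analysed here, and the part of any cell type in the results was not tested.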

How the data were processed

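The members and gene lists were chosen with earlier results of these data known. Polyadenylated RNA was sequenced from TruSeq libraries, per the labels' protocols. TopHat, Bowtie and DESeq2 are named in the submitters' processing notes, without roles or versions. The genome build and the use of strand are not given in the sources used here. The signal columns hold counts per feature divided by a size factor per library, by the authors, per the file headers, separately in each of 2 tables. The log2 fold changes, their standard errors, the p-values and the adjusted p-values are those deposited by the authors, and the tables hold no row whose adjusted p is 0.05 or more. Their Benjamini-Hochberg ranks gave 8287 features tested for HP1a RNAi and 7533 for dKDM4A RNAi.

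In the HP1a table each value was a whole number of reads, to within 0.1 reads, times a constant per library, which gave the reads quoted and size factors from 0.717 to 1.24. That constant was first set from low values and then refined with larger ones. A count test was not used, because the genes were chosen on this same comparison. Between 2064455 and 4001003 reads per library fell in the listed rows, and total depth is unknown. Ratios were taken from mean normalized counts, with no pseudocount and no filter. Exon lengths, overlaps and transposable elements were read from the Ensembl BDGP6 annotation, matched by identifier for 15 of 16 chromosome 4 genes and by symbol for dati. The named genes are the 5 members, their nearest listed neighbours, listed members of the lists, and the 3 rows nearest to each member in log2(normalized count + 1). CG1909, CG32017 and yellow-h were named after their values were seen. Promoter and protein sequences were not analysed here. Recovery of test numbers and size factors was tested on simulated data. Alternatives were pseudocounts, the deposited fold change, the replicate block, each library left out, another scaling, and stricter thresholds or filters. Python 3.11.15, numpy 2.4.6, pandas 2.3.3 and matplotlib 3.10.9 were used.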

Additional observations from a re-analysis of the deposited data

How the results depend on the processing

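None of the 5 log2 ratios changed sign under any of the 50 alternative values, and 44 of these moved by less than the spread between replicates. Much of this was fixed in advance. The groups of listed features do not overlap, so a pseudocount, the replicate block or a library left out could not change a sign. With 2 libraries per group, leaving out 1 also moves a ratio by less than that spread. These counts are therefore no measure of robustness. The deposited fold change gave 0.86 for ey and 1.83 for dati, and a pseudocount of 5 gave 2.23 for dati. Scaling by the summed reads of the listed rows moved the median of all listed rows by -0.13 and gave 0.87 for ey, -0.99 for toy and -1.25 for Sox102F. With each library left out, the log2 ratios ranged from 0.93 to 1.08 for ey, -0.91 to -0.79 for toy, -1.15 to -1.08 for Sox102F, 2.36 to 2.70 for dati and -1.08 to -0.42 for fuss. Replicate numbers are shared by the groups, but nothing in the labels pairs the libraries. The deviations of same-numbered libraries had a correlation of 0.24 over the 535 rows and of 0.80 over the 16 chromosome 4 rows, as a description over rows that share the same 4 libraries. In a fit by replicate block, the mean of the ratios within each number, the log2 ratios were 1.01 for ey, -0.85 for toy, -1.12 for Sox102F, 2.53 for dati and -0.77 for fuss. An absolute deposited log2 fold change of at least 1 left 1 higher and 5 lower chromosome 4 genes, of which 1 higher (dati) and 1 lower (Sox102F) were transcription factor genes. A mean of at least 100 left 1 higher gene (ey) in both counts. Of 40 alternative counts for the other lists 13 moved by more than 1.5 times, in each case to a smaller count. With 2 libraries per group, and 13 and 18 control reads, the fold of dati is the most limited by depth.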
